A study of Mus musculus with 64 samples.

Results

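Cish, Socs1, Socs2, Socs3, Pim1 and Pim2, 6 cytokine feedback genes, were followed in cultured mouse CD4 T cells that lacked Roquin, Regnase-1 or both. They were taken by gene symbol from a table of 23134 genes. All 6 were found, and all 6 were among the 16140 genes that passed the filter on low values. The rule uses symbols alone. The cells came from spleens of C57BL/6J mice and all carried Cd4-Cre-ERt2, a Cre recombinase under Cd4 control that works only once 4-OH-tamoxifen is given. DKO cells were Rc3h1/2 fl/fl and lost both Roquin genes, KO cells were Zc3h12a fl/fl and lost the gene of Regnase-1, and TKO cells were floxed for, and lost, all 3 genes, whereas WT cells carried the Cre alone. All cells had been activated through CD3 and CD28 for 40 h in a Th1 medium and kept for 2 days with IL-2, and they were then left unstimulated (0 h) or restimulated with anti-CD3/28 for 1, 2 or 4 h. Total RNA was sequenced in 4 libraries for each of the 16 combinations of genotype and time, 64 libraries in all. Since the series title speaks of cooperation between both proteins, each loss was compared with WT and with the combined loss at each time.

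Cytokines such as IL-2 act on T cells through receptors whose JAK kinases phosphorylate STAT transcription factors. STAT factors then switch on genes that feed back on the signal, among them the SOCS family (Cish and the Socs genes), whose proteins bind receptors or JAKs and damp signalling. PIM kinases are short-lived serine/threonine kinases that are active as soon as they are made, and they promote growth and survival of lymphocytes. Their activity depends on the amount of protein, which was not measured here. Roquin and Regnase-1 bind stem-loops in the 3′ UTRs of mRNAs and cause these mRNAs to decay.

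A STAT dimer binds the palindrome TTCNNNGAA, in which N is any base. It was looked for in the RefSeq promoter windows of the genes (300 bases each, GRCm38.p6), of which 8.298% of 32851 held at least 1 match and 0.4566% held 2 or more. Matches were found at Cish and Socs3, which are shown because they are the members in which this motif stood near the start site, with the matches in capitals. The Cish stretch is chr9:107296654-107296683 on the plus strand, and its matches began at position 0 and at position 11 from the start site. The Socs3 stretch is chr11:117969502-117969531 on the minus strand, with 1 match that began at position -154.
Cish: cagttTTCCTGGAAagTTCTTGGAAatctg
Socs3: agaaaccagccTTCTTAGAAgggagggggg
The windows of Socs1, Pim2 and both Pim1 promoters held no match of these letters, which says nothing about the factor itself. Socs2 was not in the promoter table.

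The 3′ UTRs (longest per gene, GENCODE M21) were searched for small stem-loops, namely 5 Watson-Crick pairs that close a loop of 3 bases in the order pyrimidine, purine, pyrimidine. One was found in Socs1 at UTR positions 337 to 349 and one in Socs2 at positions 1017 to 1029, shown with the loop in capitals.
Socs1: tctgcTGTgcaga
Socs2: tctacCATgtaga
Such a stem-loop occurred in 24.5% of 13579 genes with a 3′ UTR, and in 30.4% and 21.3% of genes with a UTR about as long as those of Socs1 and Socs2. None was found in Cish, Socs3, Pim1 or Pim2, the member with the largest difference between knockout and WT cells. The decay-linked pentamer ATTTA was present 4 times in the Socs3 UTR, 3 times in that of Pim1, 2 times each in Cish, Socs2 and Pim2, and not in Socs1. Among genes with a UTR about as long, 31.4% held as many or more as Socs3 and 41.1% as many or more as Pim1. For Cish, Socs2 and Pim2 these shares were 79.8%, 52.5% and 43.9%. A match of letters is a description and not evidence of binding.

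On GRCm38, Cish lies at chr9:107296026-107302784 (plus strand), Socs1 at chr16:10782240-10785536 (minus), Socs2 at chr10:95385362-95417180 (minus) and Socs3 at chr11:117966079-117970047 (minus). Pim1 lies at chr17:29490753-29496112 (plus) and Pim2 at chrX:7878262-7883432 (plus). Values are reads over the whole gene. The strand setting of the counting was not given, so reads of overlapping genes of opposite strand cannot be told apart. Cish overlaps Gm17040 and Gm17041, which had 1.90% and 0.333% as many reads, and Pim1 overlaps Gm26885, which had 1.18% as many.

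Depth was 5369873 to 11666603 reads per library, and the 10 most abundant genes took 27.6 to 38.3% of them. At 1 h, Zc3h12a averaged 641 ± 130 normalized counts in KO cells and 548 ± 43 in TKO cells, against 1045 ± 136 in WT cells (SD, n = 4 each). At 0 h it was not lower in KO or TKO cells (122 and 148) than in WT cells (95.1). Rc3h1 at 4 h averaged 618 in DKO and 706 in TKO cells against 1390 in WT cells, whereas Rc3h2 was not below WT (739 and 924 against 640), so that whole-gene values check the deletions only in part. Summed CD4 T cell markers were 4257 to 9373 in every library. Myeloid, dendritic, NK, neutrophil and erythroid or platelet markers summed to at most 66.1, 47.8, 36.9, 8.14 and 41.8, and CD8 T cell markers to at most 473. Of the 64 libraries, 24 held Xist at 4341 or more, and the other 40 held Xist at no more than 10.4 and the Y-linked Ddx3y at 395 or more. Those 24 were 2 in each DKO and WT group and 1 in each KO and TKO group, so that the 4 libraries of a group were not all from 1 mouse. Nothing in the labels ties each library to a mouse or culture of its own. The p-values therefore reflect only the spread between these libraries, part of which may be technical. In bulk RNA, fewer cells of a type and less RNA per cell cannot be told apart.

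Per kilobase of annotated exons, Pim2 and Pim1 reached the highest group levels of the 6 genes, 2119 in TKO cells at 0 h and 1497 in KO cells at 2 h. The highest level per kilobase was 604 for Cish, 244 for Socs3, 134 for Socs2 and 98.8 for Socs1. The highest group mean exceeded the lowest 34.1-fold for Socs3, 14.6-fold for Pim2, 10.4-fold for Socs2 and 7.17-fold for Socs1, but 3.96-fold for Pim1 and 2.73-fold for Cish. Socs3 was also the gene whose libraries differed most within a group, with a median coefficient of variation of 43.3%, against 10.96% for Cish.

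**Figure D1:**
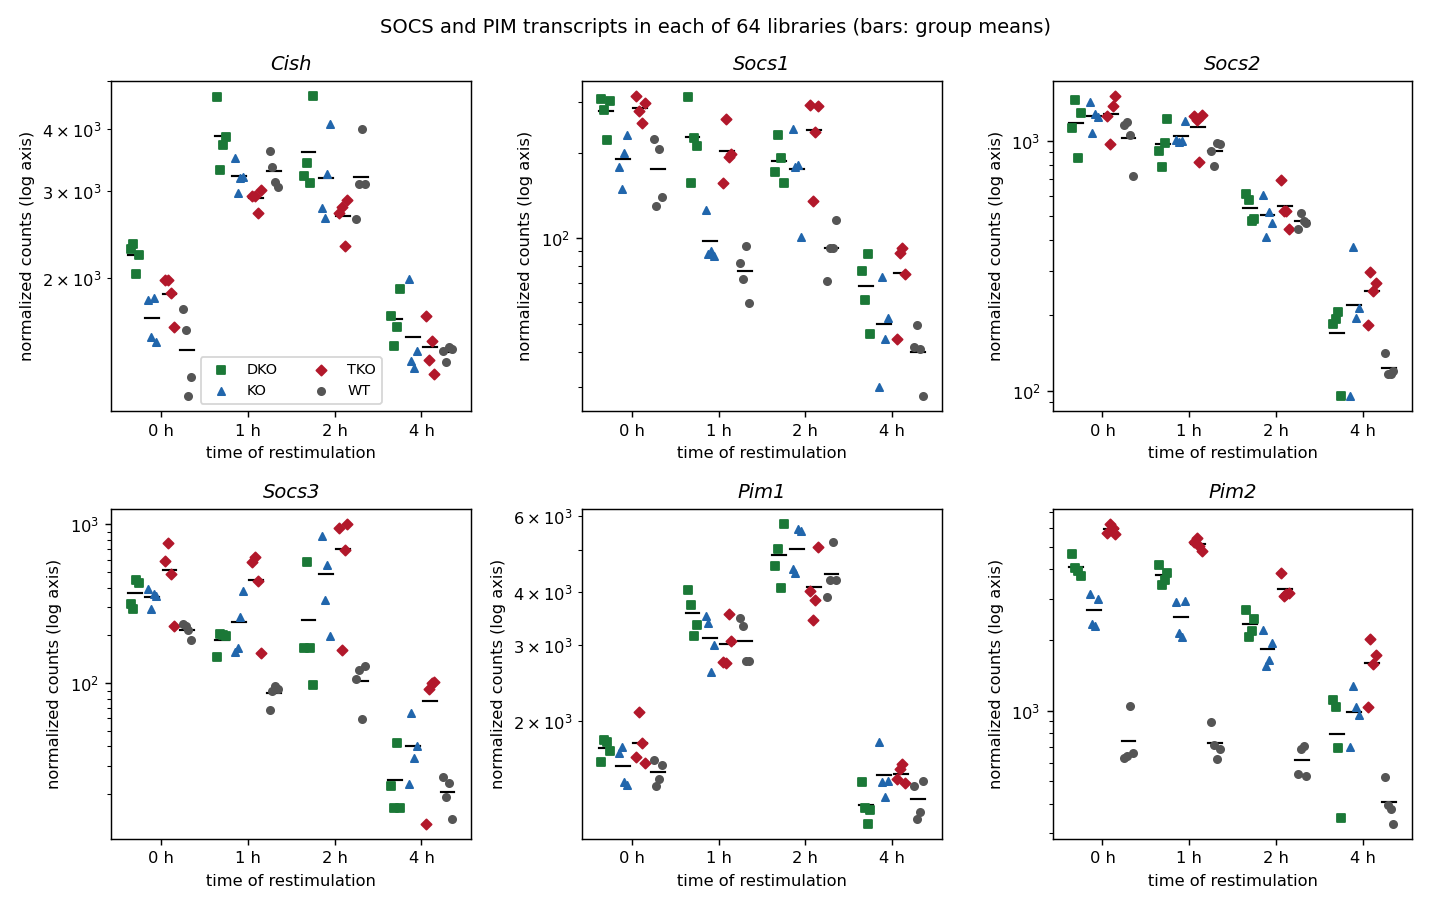
Normalized counts of the 6 genes in each of the 64 libraries (points; log axis) by restimulation time in hours, with the mean of each group of 4 libraries. Pim2 in WT cells lay between 329 and 1043 and in TKO cells between 1037 and 6263, while Pim1 traced about the same curve in each genotype.

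Restimulation of WT cells split the 6 genes. Cish and Pim1 rose within 1 h and were back near their unstimulated level at 4 h, whereas the 3 Socs genes and Pim2 ended lower at 4 h. At 1, 2 and 4 h, 4 of 6, 4 of 6 and 4 of 6 passed an adjusted p of 0.05 against 0 h (limma, Benjamini-Hochberg over 16140 genes), where 31.1%, 52% and 51.7% of all genes did. The counts at 2 and 4 h are thus not far above the share of all genes. Changes are log2 differences, given ± SE with 4 libraries per group.

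Cish encodes CIS, which binds phosphorylated cytokine receptors and competes with STAT5. In WT cells it had 3618, 3353, 3126 and 3058 normalized counts at 1 h, against 1733, 1574, 1158 and 1263 at 0 h. The libraries of both times did not overlap. The change was 1.21 ± 0.13 at 1 h (adjusted p = 2.82e-11) and 1.17 ± 0.13 at 2 h (adjusted p = 3.26e-11), and at 4 h Cish was at 1427, 1356, 1454 and 1439, a difference of 0.01. Pim1, a PIM kinase induced by many cytokines and by antigen receptors, had a like course. It had 3887, 4253, 5226 and 4266 at 2 h, against 1623, 1411, 1461 and 1577 at 0 h, again with no overlap. It rose by 1.01 ± 0.12 at 1 h (adjusted p = 2.9e-10) and by 1.53 ± 0.12 at 2 h (adjusted p = 7.57e-17). At 4 h the difference was -0.21 (adjusted p = 0.141).

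Socs1 encodes an inhibitor that blocks JAK kinases directly and is best known for limiting interferon-gamma signals. Unstimulated WT cells had 223, 130, 206 and 139 Socs1 counts. After 1 h of restimulation they had 82.1, 71.8, 93.8 and 59.5, after 2 h 70.8, 92.3, 92.4 and 116, and after 4 h 41.7, 49.8, 40.9 and 28.0. All values at each later time were below all unstimulated values. The falls were -1.15 ± 0.25 at 1 h (adjusted p = 0.000197), -0.89 ± 0.25 at 2 h (adjusted p = 0.00221) and -2.08 ± 0.25 at 4 h (adjusted p = 2.33e-10). Socs2, which limits growth hormone signalling in mice, fell later. It had 141, 117, 116 and 119 at 4 h, against 1154, 1185, 1049 and 719 at 0 h. Its change was -0.15 at 1 h, -1.08 ± 0.22 at 2 h (adjusted p = 4.01e-05) and -3.03 ± 0.22 at 4 h (adjusted p = 2.04e-17).

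Socs3 encodes an inhibitor of receptors that contain gp130, such as that of IL-6. It had 25.7, 19.2, 23.7 and 14.0 in WT cells at 4 h, against 235, 228, 218 and 188 at 0 h. The fall was -3.36 ± 0.51 (adjusted p = 1.47e-07). That at 1 h, -1.33 ± 0.51, passed narrowly (adjusted p = 0.041) and was lost whichever of the 8 libraries was left out, and also under the deposited scaling, voom and no filter. At 2 h the difference was -1.11 (adjusted p = 0.0639). Pim2, a PIM kinase of lymphocytes that sustains cell survival, had 521, 395, 380 and 329 in WT cells at 4 h, against 627, 638, 1043 and 661 at 0 h. It fell by -0.85 ± 0.21 at 4 h (adjusted p = 0.000368), after differences of -0.01 and -0.25 at 1 and 2 h.

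**Figure D2:**
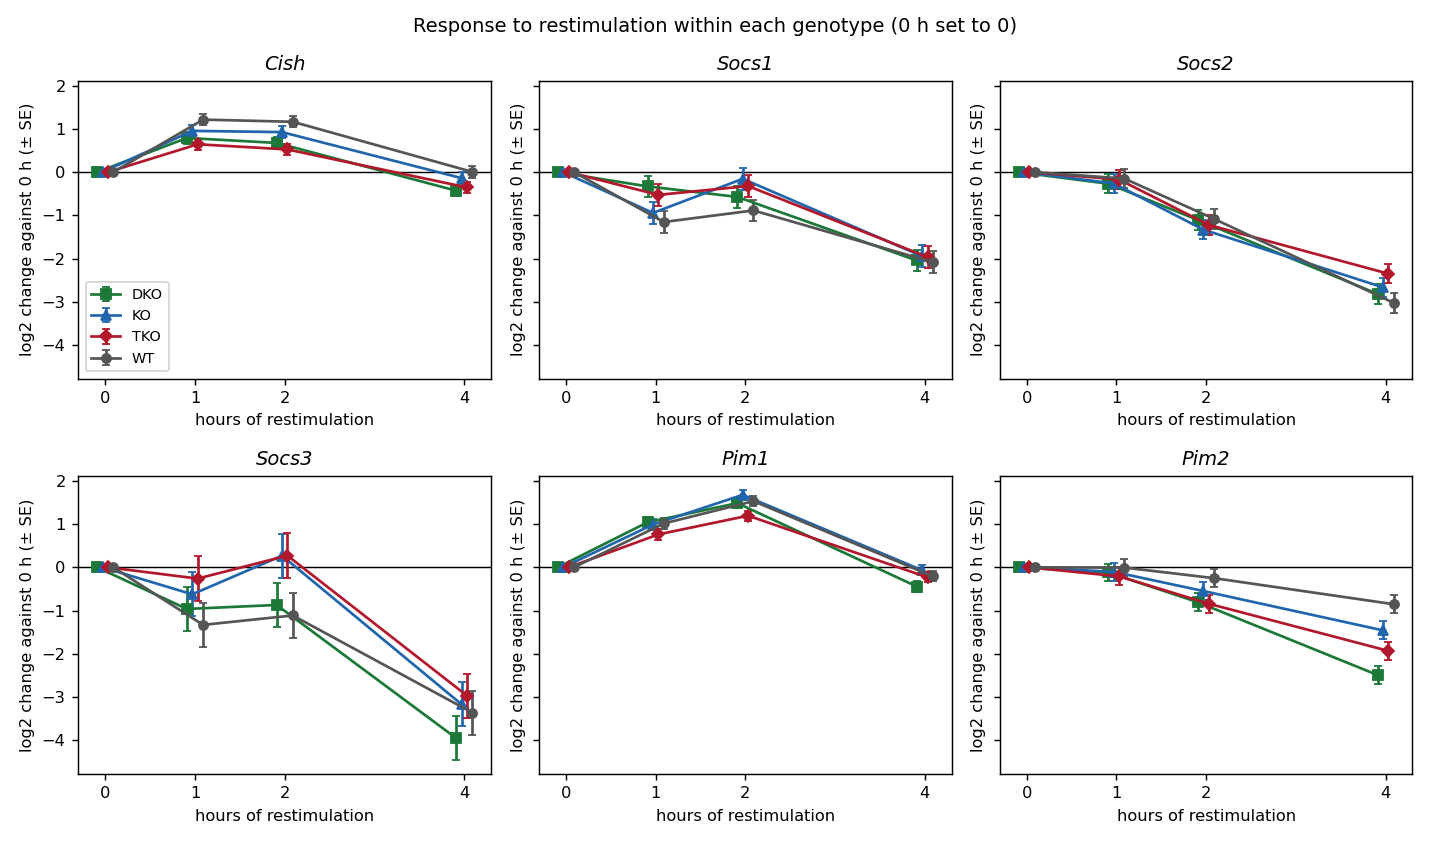
Log2 change of each gene against 0 h of the same genotype (y axis, limma estimate ± SE) at 1, 2 and 4 h of restimulation, for DKO, KO, TKO and WT cells. Cish and Pim1 lay above 0 at 1 and 2 h in each genotype, and at 4 h Socs1, Socs2, Socs3 and Pim2 lay below 0 in each.

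Restimulated knockout cells were compared with 0 h of the same genotype. Pim1 rose at 1 and 2 h in DKO (1.04 and 1.49), KO (0.99 and 1.68) and TKO cells (0.76 and 1.19), and so did Cish (0.79 and 0.68 in DKO, 0.95 and 0.93 in KO, 0.64 and 0.53 in TKO cells). Socs1, called lower in WT cells at 1 h, was called lower then in KO cells (-0.94) but not in DKO (-0.33, adjusted p = 0.327) or TKO cells (-0.53, adjusted p = 0.132). At 4 h Socs1, Socs2, Socs3 and Pim2 had fallen in all 3 knockouts. Socs3 fell by -3.95 in DKO, -3.17 in KO and -2.97 in TKO cells, and Socs2 fell by -2.82, -2.67 and -2.35 in the same order. Pim2 fell by -2.49 in DKO, -1.46 in KO and -1.93 in TKO cells. DKO cells also ended with less Cish (-0.43) and Pim1 (-0.44) at 4 h than at 0 h, and TKO cells with less Cish (-0.35), a call lost without any 1 of 3 libraries. Called were 2, 5 and 6 of 6 genes in DKO cells at 1, 2 and 4 h, where 31.9%, 55.1% and 55.1% of all genes were called. In KO cells 3, 4 and 4 were called, with 29.2%, 58% and 60.5% of all genes, and in TKO cells 2, 4 and 5, with 22.3%, 47.3% and 50.4%. The counts at 2 h include Socs1 in DKO cells (adjusted p = 0.0477), lost without any 1 of 6 libraries (adjusted p up to 0.128), and Pim2 in KO cells, lost without any 1 of 4 (adjusted p up to 0.0705).

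Against WT cells, no member was called lower in any knockout at any time, although other scalings called Cish lower in TKO cells at 1 or 2 h. Pim2 was called higher in all 12 comparisons, Socs1 in 7 of 12, Socs3 in 4, Cish and Socs2 in 2 each and Pim1 in none. Some alternatives called Pim1 higher in DKO or TKO cells. These comparisons share the 4 WT libraries of a time. In DKO cells 2, 2, 2 and 1 of 6 genes were called at 0, 1, 2 and 4 h, all higher. Of all genes 7.61%, 8.2%, 9.47% and 5.38% were called there, and 5.33%, 5.94%, 7.96% and 4.68% were called higher. In KO cells it was 1, 1, 3 and 2, again all higher, with 1.34%, 2.16%, 5.93% and 33.1% of all genes called and 1.17%, 1.84%, 4.68% and 21.7% higher. TKO cells had 3, 3, 3 and 4 called, all higher, with 37.2%, 31.5%, 36.5% and 43.7% of all genes called and 19.3%, 15.8%, 20% and 27.4% higher. These shares depend on the scaling. KO against WT cells at 4 h called 5339 genes, of which 65.5% were higher, but 2881, 3062 and 2868 with the deposited, median-of-ratios and upper-quartile scalings, of which 20.03%, 36.5% and 19.7% were higher, and 1537 with the 50-read filter. With the deposited scaling, 97.8%, 51.3%, 60.3% and 69.9% of the DKO calls at 0, 1, 2 and 4 h were higher in place of 70.1%, 72.4%, 84.0% and 87.1%. For KO cells at 0, 1 and 2 h it was 99.1%, 63.1% and 52.6% in place of 87.5%, 85.3% and 78.9%. For TKO cells it was 58.9%, 22.7%, 43.8% and 35.6% in place of 51.8%, 50.2%, 55.0% and 62.6%.

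**Figure D3:**
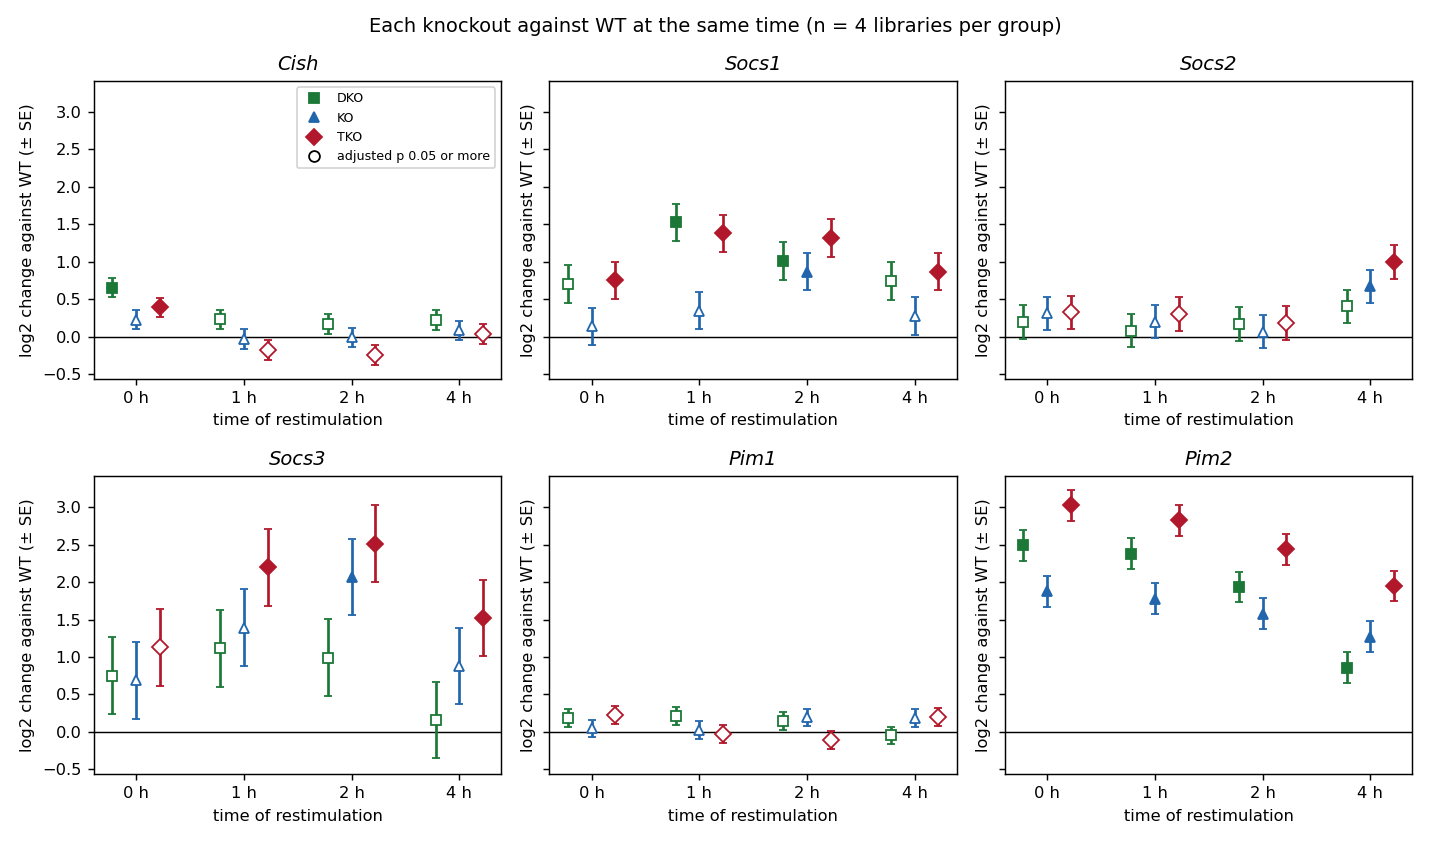
Log2 difference of each gene between a knockout and WT cells at the same time (limma estimate ± SE, 4 libraries per group), for DKO, KO and TKO cells at 0, 1, 2 and 4 h. Pim2 lay above 0 in all 12 comparisons, from 0.86 in DKO cells at 4 h to 3.03 in TKO cells at 0 h, and Pim1 lay between -0.11 and 0.22.

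Pim2 had the largest differences among the 6 genes. At 0 h it had 4665, 4040, 3943 and 3747 normalized counts in DKO cells, 3141, 2337, 2288 and 3004 in KO cells and 5731, 6263, 6024 and 5670 in TKO cells, against 627, 638, 1043 and 661 in WT cells. Each knockout library exceeded every WT library. Every TKO library also exceeded every DKO library, but the difference between TKO and DKO cells at 0 h was not called in the limma test. The ratio of means to WT was 5.52 in DKO, 3.63 in KO and 7.98 in TKO cells. On the log2 scale the differences were 2.49 ± 0.21 (adjusted p = 5.04e-13), 1.88 ± 0.21 (adjusted p = 3e-09) and 3.03 ± 0.21 (adjusted p = 2.33e-17).

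The Pim2 differences were smaller at later times. In DKO cells they were 2.38, 1.94 and 0.86 at 1, 2 and 4 h (adjusted p = 1.53e-12, 1.15e-09 and 0.00656). In KO cells they were 1.78, 1.58 and 1.27 (adjusted p = 9.87e-09, 1.95e-07 and 1.11e-05), and in TKO cells 2.83, 2.44 and 1.95 (adjusted p = 3.88e-16, 7.85e-14 and 9.77e-11). At 4 h Pim2 had 1108, 1035, 692 and 349 in DKO cells, 698, 1272, 1037 and 958 in KO cells and 1037, 2020, 1584 and 1729 in TKO cells, against 521, 395, 380 and 329 in WT cells. KO and TKO libraries still lay above all WT libraries, while 1 DKO library, with 349, lay within them. The DKO call at 4 h was lost when the fit held only the groups compared (adjusted p = 0.222) or left out the first or second DKO library.

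Markers of B and CD8 T cells were set beside Pim2. The 7 B cell markers summed at 0 h to 1710 to 2487 in DKO, 1873 to 2800 in KO and 3254 to 4731 in TKO cells, against 1038 to 2154 in WT cells, nearly all of it Ighm. Without Ighm the sums were 59.4 to 90.1, 28.4 to 127 and 49.3 to 95.2, against 20.9 to 57.0. None of the 7 was at 0 in every library. Of the 5 that passed the filter, 2, 2, 0 and 1 were called higher in DKO than in WT cells at 0, 1, 2 and 4 h. In KO cells it was 0, 0, 1 and 1 and in TKO cells 3, 3, 3 and 2, and 1 was called lower in TKO cells at 4 h. Of all genes, 5.33%, 5.94%, 7.96% and 4.68% were called higher in DKO cells at these times. In KO cells 1.17%, 1.84%, 4.68% and 21.7% were, and in TKO cells 19.3%, 15.8%, 20% and 27.4%. Cd22 was higher at 0 h in DKO (3.01) and TKO cells (3.18), Cd79b was higher at 4 h in TKO cells (2.40), and Ighm was higher at 0 h in TKO cells (1.62). Of 2 CD8 T cell markers, Cd8b1 was higher at 4 h in KO (1.60) and TKO cells (1.62). The part of these markers in the Pim2 differences was not tested. The defining markers Cd79a and Ms4a1 had medians of 2.27 and 1.16 over all libraries and reached no more than 7.82 in any DKO, TKO or WT library. They reached 27.2 in KO cells, in a 0 h library whose Pim2 level, 2288, was the lowest of its group. The WT library with 1043 Pim2 at 0 h held 2133 Ighm, against 1011 to 1219 in the other WT libraries at 0 h. In DKO cells at 4 h both genes put the libraries in the same order. Ighm was at 305, 235, 214 and 183 there, and Pim2 at 1108, 1035, 692 and 349. In KO cells at 0 h the libraries with 2768 and 2383 Ighm held 3004 and 3141 Pim2, and those with 1845 and 1804 held 2337 and 2288. Some groups went the other way. In TKO cells at 0 h the library with the most Pim2 (6263) held the least Ighm (3170). In WT cells at 4 h the library with the least Pim2 (329) held the most Ighm (205). The link between both genes was not tested.

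Pim2 is X-linked. Its mean was higher in the libraries with Xist than in those without in 15 of 16 groups, with a median ratio of 1.22. This was not particular to Pim2. A term for presence of Xist in the fit was 0.22 for Pim2 and 0.23 for Socs2, on chromosome 10 (log2). It was 0.02 to 0.10 for the other members. The cause was not tested. Libraries with Xist numbered 2 in each DKO and WT group and 1 in each KO and TKO group, so that the KO and TKO folds with Xist rest on 1 library. Within the libraries with Xist, Pim2 at 0 h was 5.18-fold the WT level in DKO, 3.74-fold in KO and 7.17-fold in TKO cells. Within those without Xist it was 5.97-fold, 3.95-fold and 9.14-fold. At 4 h the folds were 1.71, 2.99 and 4.75 with Xist and 2.23, 2.32 and 3.74 without. With presence of Xist as a term in the fit, all 12 Pim2 calls against WT were kept.

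Pim1, in contrast, was called in no knockout against WT in the main fit. At 0 h it had 1608, 1805, 1787 and 1704 in DKO cells, 1686, 1741, 1439 and 1415 in KO cells and 1650, 2102, 1773 and 1599 in TKO cells, against 1623, 1411, 1461 and 1577 in WT cells, and each knockout overlapped WT. The 12 estimates ran from -0.11 to 0.22, and their 95% intervals from -0.35 to 0.46. In the interval for TKO cells at 0 h, -0.01 to 0.46, the upper bound is far below the 3.03 of Pim2. Some alternatives did call Pim1 higher. With the deposited scaling it passed at 0 h in DKO (0.46, adjusted p = 0.00167) and TKO cells (0.29, adjusted p = 0.0394). In TKO cells it also passed at 0 h without 1 TKO library (0.31, adjusted p = 0.0485) and at 4 h without a filter (0.33, adjusted p = 0.0295).

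Among the SOCS genes, Socs1 differed most regularly. At 1 h it had 314, 156, 225 and 211 in DKO cells, 126, 88.3, 90.4 and 86.5 in KO cells and 156, 262, 193 and 197 in TKO cells, against 82.1, 71.8, 93.8 and 59.5 in WT cells. DKO and TKO libraries lay above all WT libraries, and KO libraries overlapped with them. The differences were 1.52 ± 0.25 in DKO (adjusted p = 2.15e-05), 0.35 in KO (adjusted p = 0.574) and 1.38 ± 0.25 in TKO cells (adjusted p = 2.64e-05). In TKO cells Socs1 was also called at 0 h (0.75, adjusted p = 0.0152), 2 h (1.31, adjusted p = 4.19e-05) and 4 h (0.87, adjusted p = 0.00426), and in DKO cells at 2 h (1.01, adjusted p = 0.0049). The DKO differences of 0.70 at 0 h and 0.74 at 4 h did not pass (adjusted p = 0.0752 and 0.0718). KO cells passed at 2 h (0.87, adjusted p = 0.0256), a call lost under each of the 3 other scalings, with only the groups compared, with the 50-read filter and without any 1 of 5 libraries. The TKO call at 0 h was lost with that filter, with upper-quartile scaling and without either of 2 WT libraries (adjusted p up to 0.061), and that at 4 h with only the groups compared and upper-quartile scaling (adjusted p up to 0.0648).

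Socs3 reached its highest level in TKO cells at 2 h. There it had 956, 161, 689 and 1010, against 106, 121, 59.4 and 129 in WT cells. In KO cells it had 847, 332, 557 and 200, and in DKO cells 166, 576, 167 and 97.6. KO and TKO libraries lay above all WT libraries, although 1 TKO library, with 161, lay close to them, and DKO libraries overlapped with WT. The differences were 2.07 ± 0.51 in KO (adjusted p = 0.00786) and 2.51 ± 0.51 in TKO cells (adjusted p = 0.000123), while the 0.99 of DKO cells did not pass (adjusted p = 0.232). The KO call was lost without the KO library with 847 (1.70, adjusted p = 0.0647).

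TKO cells also had more Socs3 at 1 h, with 578, 625, 440 and 154 against 67.7, 89.1, 96.3 and 91.8 in WT cells (2.20 ± 0.51, adjusted p = 0.000909). At 0 h the difference of 1.13 did not pass (adjusted p = 0.0769). At 4 h Socs3 had 13.0, 91.4, 101 and 102 in TKO cells, against 25.7, 19.2, 23.7 and 14.0 in WT cells (1.52 ± 0.51, adjusted p = 0.014). So 3 TKO libraries lay above WT and 1 below it. This call depended on the processing, with 1.16 to 2.23 across the alternatives and an adjusted p of up to 0.173. Without the TKO library at 13.0 the difference was 2.23, a fold 1.63 times larger. At 2 h without the TKO library at 161 it was 3.12, a fold 1.52 times larger. Each of these libraries was the lowest of its group, so that a larger difference without it was set in advance.

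Socs2 was called at 4 h and at no other time. It then had 95.1, 375, 195 and 213 in KO cells and 182, 299, 251 and 269 in TKO cells, against 141, 117, 116 and 119 in WT cells. All TKO libraries were above all WT libraries, while 1 KO library was below them. The TKO difference was 1.00 ± 0.22 (adjusted p = 0.000332) and was called under every alternative. The KO difference of 0.67 ± 0.22 (adjusted p = 0.0192) was lost under 9 of 18 alternatives, the 3 other scalings among them. In DKO cells, with 185, 193, 207 and 95.4, it was 0.40 (adjusted p = 0.314). At 0, 1 and 2 h, none of the 9 Socs2 differences, 0.06 to 0.32, passed, and their 95% intervals ran from -0.39 to 0.77.

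Cish differed at 0 h. It had 2295, 2349, 2038 and 2229 in DKO cells and 1985, 1988, 1869 and 1595 in TKO cells, against 1733, 1574, 1158 and 1263 in WT cells. DKO libraries lay above all WT libraries and 1 TKO library fell within the WT range. The differences were 0.65 ± 0.13 (adjusted p = 0.000481) and 0.39 ± 0.13 (adjusted p = 0.0155), the second of which was lost under 3 scaling and filter settings, with only the groups compared and without 1 WT library. KO cells, with 1805, 1527, 1826 and 1489, differed by 0.23 (adjusted p = 0.597), but passed as higher with the deposited scaling (0.49, adjusted p = 0.0077). At 1, 2 and 4 h the 9 Cish differences ran from -0.25 to 0.23 and none passed. At 2 h the TKO difference passed as lower under the 3 other scalings and the 50-read filter (-0.34 to -0.40, adjusted p up to 0.0364). At 1 h it passed as lower with the deposited scaling (-0.42, adjusted p = 0.00959).

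Setting the knockouts against each other, Pim2 was higher in TKO than in KO cells at 0, 1 and 2 h, by 1.15, 1.05 and 0.86. Socs1 at 1 h was higher in TKO than in KO cells (1.03, adjusted p = 0.00425) and higher in DKO than in KO cells (1.18, adjusted p = 0.00475). So 1, 2, 1 and 0 of 6 genes were called in TKO against KO cells at 0, 1, 2 and 4 h, where 20.2%, 9.67%, 11.6% and 2.59% of all genes were, and 0, 1, 0 and 0 in DKO against KO cells, where 1.18%, 1.32%, 2.78% and 3.05% were. In TKO against DKO cells Pim2 was called higher at 4 h (1.09, adjusted p = 0.000221) and Cish lower at 2 h (-0.42, adjusted p = 0.0406). The counts there were 0, 0, 1 and 1, with 14.8%, 4.16%, 6.75% and 12.4% of all genes. The Cish call was lost under 8 of 18 alternatives, and the Pim2 call with only the groups compared (adjusted p = 0.131).

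If the effects of both single losses added up on the log2 scale, the TKO difference from WT would equal the sum of the DKO and KO differences. For Pim2 that sum was 4.37, 4.16, 3.51 and 2.13 at 0, 1, 2 and 4 h (SE 0.36 each), and the TKO difference was 3.03, 2.83, 2.44 and 1.95 (SE 0.21 each). TKO cells fell short of the sum by -1.34 ± 0.29 at 0 h (adjusted p = 0.0111) and by -1.33 ± 0.29 at 1 h (adjusted p = 0.0257). At 2 h the shortfall of -1.08 did not pass (adjusted p = 0.148), and at 4 h the difference was -0.18 (adjusted p = 0.949). Pim2 was thus the 1 of 6 genes called at 0 and at 1 h, where 0.836% and 0.254% of all genes were called, and 0 of 6 genes were called at 2 and 4 h, with 0.155% and 0.167% of all genes. The call at 1 h was lost when any 1 of 6 of the 16 libraries was left out (adjusted p up to 0.0667). For the other 5 genes the TKO difference minus the sum ran from -0.57 (Socs1 at 2 h) to 0.49 (Socs3 at 4 h), and none passed.

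**Figure D4:**
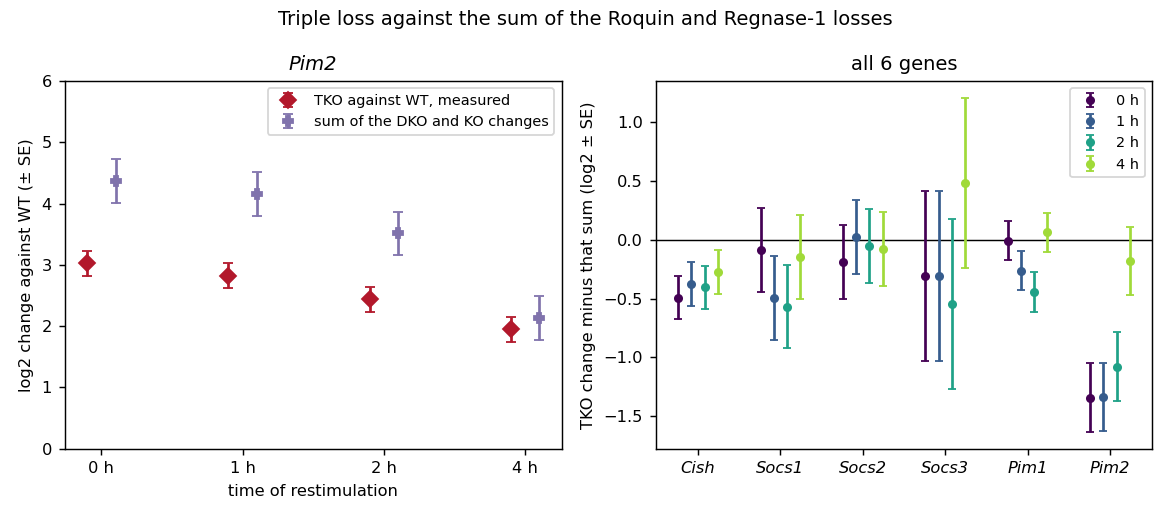
Left, Pim2 in TKO against WT cells and the sum of its DKO and KO changes (log2 ± SE) by restimulation time. The TKO change was 3.03 at 0 h and 2.83 at 1 h, and the sum 4.37 and 4.16. Right, the TKO change minus that sum (log2 ± SE) for the 6 genes at 0, 1, 2 and 4 h. For Pim2 it was -1.34 at 0 h and -1.33 at 1 h, lower than any value of the other genes.

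The response to restimulation itself was compared by taking the change from 0 h in a knockout minus that in WT cells. Pim2 fell further from 0 to 4 h in DKO than in WT cells, by -1.64 ± 0.29 (adjusted p = 0.00106), and in TKO than in WT cells, by -1.08 ± 0.29 (adjusted p = 0.0136). Cish rose less from 0 to 2 h in TKO than in WT cells, by -0.64 ± 0.19 (adjusted p = 0.0312). Each was the 1 gene of 6 called in its comparison, where 0.818%, 6.61% and 4.56% of all genes were called. The Cish call was lost under 9 of 26 alternatives. The Pim2 call in DKO cells was lost with only the groups compared (adjusted p = 0.0555), and that in TKO cells without the 4 h library with 1037 counts (adjusted p = 0.0543). No member passed in the changes from 0 to 1, 2 and 4 h in KO cells (0.0248%, 0.204% and 2.19% of all genes called), from 0 to 1 and 2 h in DKO cells (0.105% and 0.347%) or from 0 to 1 h in TKO cells (0.781%).

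Which libraries were high or low within a group was not the same for all genes. At 2 h the TKO library with 135 Socs1 was also the one with 161 Socs3, against 235 to 295 and 689 to 1010 in the other TKO libraries. The KO library with 101 Socs1 had 200 Socs3, and the DKO library with 231 Socs1 had 576 Socs3. The library whose 10 most abundant genes took the largest share of reads had its group's lowest Socs3 in 12 of 16 groups. It had the lowest Socs1 in 7 of 16 groups, all 4 at 4 h among them, and likewise the lowest Pim2 in 7 of 16 groups, all 4 at 4 h among them. It had the highest Cish in 9 of 16 groups, all 4 at 1 h among them, and the highest Pim1 in 6 of 16. For Socs2 it was lowest in 3 and highest in 3. With 4 libraries per group, any library is lowest or highest in some groups by chance, and these counts were not set against all genes. The part of the share of reads in the 10 most abundant genes in the differences was not tested. The library with the largest such share was also left out of the knockout group alone, with all WT libraries kept. Socs3 in TKO against WT cells at 0 h then moved from 1.13 to 1.51, and Pim2 in DKO against WT cells at 4 h from 0.86 to 1.21. Other differences shrank, such as that of Socs1 in DKO against WT cells at 1 h, from 1.52 to 1.35. The library left out held its group's lowest Socs3 and Pim2 in the first cases and its highest Socs1 in the last. The direction of these moves was thus set in advance, and they are no support for a difference.

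**Figure D5:**
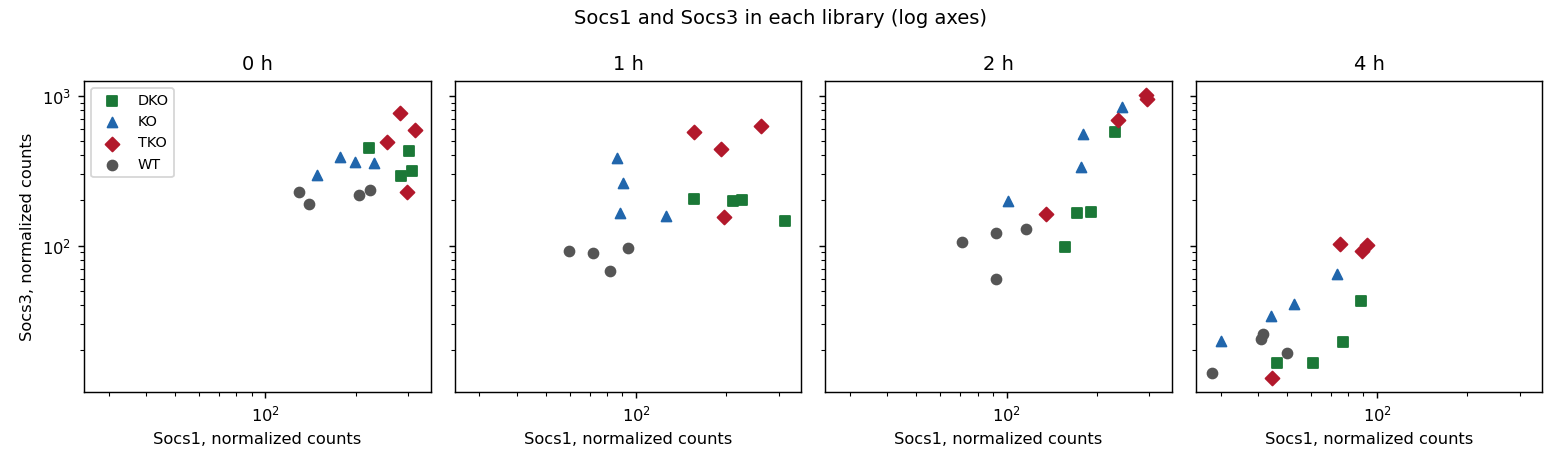
Socs3 (y axis) against Socs1 (x axis) in normalized counts, both log scales, 1 point per library, by genotype and time. Among the TKO libraries at 2 h, the one lowest in Socs1 (135) was also lowest in Socs3 (161).

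Ordered by level over the 16 groups, Pim2 was highest in TKO cells at 0 h (5922 ± 275, SD), then in TKO cells at 1 h (5126 ± 273), and all 4 WT groups held ranks 13 to 16. Only 3 of its 15 pairs of neighbours in this order had libraries that did not overlap: TKO at 0 h above TKO at 1 h, TKO at 1 h above the next group, and WT at 2 h above WT at 4 h. Socs1 (highest 287 in TKO cells at 0 h, lowest 40.1 in WT cells at 4 h), Socs3 (704 in TKO cells at 2 h, 20.7 in WT cells at 4 h), Cish (3877 in DKO cells at 1 h, 1419 in WT cells at 4 h) and Pim1 (5033 in KO cells at 2 h, 1271 in DKO cells at 4 h) each had 1 such gap. Socs2 (1277 in TKO cells at 0 h, 123 in WT cells at 4 h) had 2. All other neighbours overlapped.

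Likeness was measured as Pearson's r of the 16 group means of log2 values, as a description over groups that share genotypes and times. Among the 6 genes, Cish was most like Pim1 (r = 0.92) and Socs1 most like Socs3 (r = 0.92), while Pim1 and Pim2 were little alike (r = 0.27). Over all other genes kept, the 3 most like Cish were H2-Q7, Traf6 and Ogt (r = 0.97 each), of which H2-Q7 has near-identical family members among which reads could be split. The nearest to Socs1 were Snrnp25, Tmem141 and Fchsd1 (0.94 each), and to Socs2 Parp9, Hmha1 and Abr (0.995, 0.995 and 0.995). Socs3 was most like Gabarapl2 (0.96), Foxo1 (0.95) and Prdm1 (0.95). Pim1 was most like Notch1 (0.97), Il6st (0.97) and Btg1 (0.96), and Pim2 most like Ero1l (0.98), Selenbp1 (0.97) and Tlr9 (0.97).

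Counts of related pathway genes in TKO against WT cells are to be read against the 37.2%, 31.5%, 36.5% and 43.7% of all genes called there at 0, 1, 2 and 4 h (19.3%, 15.8%, 20% and 27.4% higher). Of the 5 other SOCS and PIM genes, 2 were higher at 0 h, 1 was lower at 1 h, none was called at 2 h and 1 was higher at 4 h. Socs7 led at 0 and 4 h (0.72 and 0.38), and Pim3, a further PIM kinase, was lower at 1 h (-0.76). Of 4 JAK kinases, 1 was higher at 0, 2 and 4 h each and none was called at 1 h, led by Jak3, the partner of the common gamma chain, at 0 h (0.64), and by Jak1 at 2 and 4 h (0.48 and 0.64). Of 7 STAT factors, 3, 3, 2 and 3 were higher and 0, 1, 1 and 0 lower at 0, 1, 2 and 4 h. Stat3, the factor of IL-6 and IL-10 signals, led at 0 and 2 h (1.06 and 1.07), and Stat5a, that of IL-2, at 1 h (1.32). The list medians lay between 0.22 and 0.54 for STAT factors and between -0.08 and 0.15 for JAK kinases, beside 0.07, 0.00, 0.03 and 0.20 for all genes at 0, 1, 2 and 4 h.

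Receptor chains and cytokines moved in both directions. For comparison, 37.2%, 31.5%, 36.5% and 43.7% of all genes were called at 0, 1, 2 and 4 h. Of 19 receptor chains, 6, 2, 3 and 6 were higher and 4, 5, 2 and 1 lower in TKO than in WT cells at 0, 1, 2 and 4 h. Il9r, the receptor chain of IL-9, led at 0, 1 and 2 h (5.13, 3.86 and 3.54), and Il6ra, that of IL-6, at 4 h (1.44). Of 14 cytokines tested (15 listed), 4, 4, 5 and 6 were higher and 3, 2, 2 and 3 lower. Il10 led at 0 h (4.00) and Il9 at 1, 2 and 4 h (4.02, 3.65 and 4.78). Medians were -0.16 to 0.29 for receptor chains and -0.15 to 0.67 for cytokines.

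Of 13 other inhibitors of the pathway, 3, 4, 7 and 6 were higher and 0, 1, 0 and 1 lower in TKO than in WT cells. Of all genes 37.2%, 31.5%, 36.5% and 43.7% were called at these times, so that several counts of these lists lie at or below the share of all genes. The phosphatase gene Ptpn6 led at 0 h (0.63), and Usp18, a brake on type I interferon receptors, led at 1, 2 and 4 h (2.60, 3.77 and 1.41). Of 10 STAT5 target genes, 5, 2, 3 and 7 were higher and 2, 0, 0 and 0 lower. Survival gene Bcl2l1 led at 0 h (1.61), Gzmb at 1 h (1.21), Osm at 2 h (1.05) and Bcl2 at 4 h (1.66). Of 8 genes whose proteins PIM kinases phosphorylate, 2, 0, 0 and 2 were higher and 0, 2, 1 and 0 lower, led by Cdkn1a at 0 h (1.05), Cdc25a at 1 h (-0.66), Nfatc1 at 2 h (-0.43) and Cdkn1b at 4 h (0.90). Medians were 0.12 to 0.48 for inhibitors, -0.08 to 0.53 for STAT5 targets and -0.04 to 0.28 for PIM substrates.

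In WT cells restimulated for 4 h, the other SOCS and PIM genes went the other way from the 3 Socs genes and Pim2. Of 5, 4 were higher than at 0 h and none lower, with Pim3 at 3.07, where 51.7% of all genes were called in either direction. The lists that follow are to be read against the same share. STAT factors and JAK kinases were divided, with 3 higher and 2 lower of 7 and 1 higher and 2 lower of 4, led by Stat5a (4.18) and Jak2 (3.63). Of 19 receptor chains 2 were higher and 11 lower, led by Ifngr1, the interferon-gamma receptor (-3.74), and of 14 cytokines 10 were higher and 2 lower, led by Il3 (11.48). Other inhibitors (3 higher, 6 lower of 13) were led by Usp18 (-2.37), STAT5 targets (4 higher, 3 lower of 10) by Bcl2 (-3.79) and PIM substrates (3 higher, 4 lower of 8) by Cdkn1b (-3.39). List medians were 1.14 for other SOCS and PIM genes, -1.38 for receptor chains and 2.49 for cytokines, beside 0.01 for all genes.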

How the data were processed

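Total RNA was prepared with Trizol and made into libraries with a NuGEN kit, per the labels' protocols. The genome build was GRCm38, per the submitters' processing notes. The aligner, counter, annotation and strand setting were not given in the sources used here. The authors deposited, per the file headers, a table with a list of 4 normalized read counts for each group. As these lists number no replicates, libraries are named by their place in the list. Within a tolerance of 0.1 read, 100% of low values were whole reads, which gave the depth. The deposited group means (signal) differed from the list means by at most 0.049% and were not used, nor were the authors' deposited log2 fold changes and adjusted p-values.

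Values were rescaled by trimmed means of M values (trims of 30 and 5%). Genes were kept at 10 reads at the median depth of 7720297.5 reads (1.30 CPM) in 4 libraries and 15 reads in all. The test was limma 3.58.1 in R 4.3.3 on log2(value + 1), with 1 mean for each group, all 64 libraries, 48 residual degrees of freedom, trended and robust moderation, and 2-sided p-values adjusted by the Benjamini-Hochberg method over 16140 genes in each of 49 comparisons. Changes on this scale understate those of low genes. The median residual SD was 0.329. Libraries of a group differed by more than sampling noise, with chi-square per degree of freedom of 5.11 to 69.0. Intervals are 95% intervals with 48 degrees of freedom. Exon lengths and 3′ UTRs were from GENCODE M21, promoters from RefSeq (GRCm38.p6). The script was tested on simulated data.

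The members, lists and tests were chosen with earlier results of these data known. From the other lists, the called gene with the largest change was named in TKO against WT at each time and in WT at 4 h, except 1 that is not reported here. The 3 genes most like each member were named. Alternatives were other scalings, pseudocounts of 0.5 and 5, no filter or one at 50 reads, limma voom on recovered reads, only the groups compared, each library left out, and, chosen after seeing the data, a term for presence of Xist.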

Additional observations from a re-analysis of the deposited data

Results flagged for a closer look

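In 10 of the 96 combinations of gene and group, 1 library stood apart from the other 3 by a gap larger than Dixon's 95% critical value for 4 values allows. Chance alone gives about 1 in 20. Above the other libraries of their group were Cish in KO cells at 4 h (1997, others 1317 to 1427), Socs1 in KO cells at 1 h (126, others 86.5 to 90.4) and Socs2 in KO cells at 1 h (1195, others 991 to 1005). Also above were Socs2 in WT cells at 4 h (141, others 116 to 119), Socs3 in DKO cells at 2 h (576, others 97.6 to 167), Pim2 in TKO cells at 2 h (3846, others 3078 to 3186) and Pim2 in WT cells at 0 h (1043, others 627 to 661). Below the others were Socs2 in TKO cells at 1 h (820, others 1213 to 1262), Socs3 in DKO cells at 1 h (147, others 200 to 205) and Socs3 in TKO cells at 4 h (13.0, others 91.4 to 102).

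In 3 cases the change with restimulation differed between a knockout and WT cells by a test of the difference itself (limma, adjusted over 16140 genes). Pim2 fell further from 0 to 4 h in DKO than in WT cells, by -1.64 (adjusted p = 0.00106), and further in TKO than in WT cells, by -1.08 (adjusted p = 0.0136). Cish rose less from 0 to 2 h in TKO than in WT cells, by -0.64 (adjusted p = 0.0312).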

How the results depend on the processing

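Of 294 combinations of gene and comparison, 86 passed, 68 of these under every one of the 10 settings and left-out libraries (64) that applied to them, and none of the 86 changed sign. Of the 208 that did not pass, 73 changed sign under at least 1 alternative (sizes up to 0.55 on the log2 scale) and 46 passed under at least 1, 28 of them with the deposited scaling. For TKO against DKO cells, 2 members were called, but 4 with the deposited scaling, upper-quartile scaling, the 50-read filter or the Xist term, 1 without a filter, 0 with only the groups compared and 1 to 4 without single libraries. For changes of response against WT, 3 were called, but 14 with the deposited scaling, 1 with only the groups compared and 2 to 3 without single libraries. For non-additivity, 2 were called, but 4 with the deposited scaling and 1 to 2 without single libraries. The cause was not tested. The other counts stayed within 1.5 times. Against TMM, the deposited scaling shifted the median of all genes by -0.27 to 0.27, median-of-ratios by -0.16 to 0.01 and upper-quartile by -0.28 to 0.00. Counts over all genes moved by over 1.5 times in 16, 4 and 5 of 49 comparisons under these, and in 31 with only the groups compared. With the deposited scaling, KO against WT cells at 0 h called 2470 genes in place of 216. No paired analysis was possible because the deposited lists carry no replicate numbers, and no block taken from the data was fitted. The edgeR and DESeq2 tests were not run. Depth limits Socs1 and Socs3 at 4 h most, whose lowest group means were 40.1 and 20.7 counts, both in WT cells.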

Other observations

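Over 9895 genes, each library's deviation from its group mean was compared between a knockout and WT cells of the same time. In 11 of 12 such pairs of groups, each of the 4 knockout libraries correlated best with a different WT library (best r 0.27 to 0.70). It did so at the same place in the list for 15 of 48 libraries. The lists give no pairing of libraries, and none was used.

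In all 4 genotypes at 4 h, the library with the largest share of reads in its 10 most abundant genes was also the deepest of its group, with 9759364 reads in DKO, 11666603 in KO, 8811677 in TKO and 9051370 in WT cells. Those libraries held the lowest Socs1, Socs3 and Pim2 of their groups in all 4 genotypes.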
